A study of Tachysurus fulvidraco x Tachysurus vachelli with 6 samples.

Results

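The genes described here encode enzymes by which activated macrophages turn arginine and aconitate into effector molecules, together with the nitric oxide synthase and arginase genes of the same fish. They were found by annotation: the genes named nos2 or acod1, and those whose product name begins with arginase or nitric oxide synthase. This gave 7 of the 25792 genes of the table, namely nos2, a second inducible-like synthase gene (LOC113645328), the brain-type synthase gene nos1, the synthase-interacting protein gene nosip, acod1, arg2 and an arginase-1-like gene (LOC113656635). The genes nos2 and acod1 were chosen by their measured FPKM and fold change between these groups, so their levels are given as a description, without a test. The other 5 follow from their product names.

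The study compared gills of juvenile hybrid yellow catfish, the offspring of Tachysurus fulvidraco mothers and P. vachellii fathers (Tachysurus vachelli in the organism label), by RNA sequencing. The groups were 3 libraries from fish transported for 16 h and 3 libraries from untreated controls, all from the second gill on the left side. The labels number the libraries but do not say whether each came from 1 fish or several. The p-values therefore reflect only how these libraries vary, which may be technical in part. Since whole gill was sequenced, the cells that hold a transcript were not identified, and fewer cells of a type cannot be told apart from less RNA per cell.

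Nitric oxide synthases turn arginine into citrulline and nitric oxide. The inducible form, encoded by nos2, is made in large amounts by stimulated phagocytes of mammals and fish and acts against microbes, whereas the brain form, encoded by nos1, makes small amounts as a messenger. Arginases split the same substrate into ornithine and urea and so draw on the pool that the synthases use. The enzyme encoded by acod1, cis-aconitate decarboxylase, draws aconitate from the tricarboxylic acid cycle in mitochondria to make itaconate, which in mammalian macrophages slows succinate dehydrogenase and modifies the redox sensor KEAP1.

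The libraries held between 42962760 and 58495713 estimated counts, of which about 4 units correspond to 1 fragment, and levels are given as FPKM (fragments scaled to transcript length and to the fragment total of the library). Control replicate 1 stood apart from the other 5 libraries on the second principal component, at -46.9 against -5.77 to 25.8, and values that rest on it are given with and without it. Transport was compared with control across 20771 genes by edgeR's quasi-likelihood test, and a gene was called at a Benjamini-Hochberg adjusted p under 0.05, which 6.69% of the tested genes reached. Without transport replicate 2 the same test called 3 genes in all. DESeq2's Wald test, an alternative, called 3336 genes against 1389 by edgeR, and its calls given below stand beside that larger number.

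Transcripts of nos2 were abundant in control gills and lower after transport, with a control mean 3.89 times the transport mean, whereas those of acod1 were scarce in control gills and had a transport mean 4.66 times the control mean. Neither arginase gene was called, nor was nosip, and the other synthase genes were close to absent in both groups.

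The gene nos2 (113645314, scaffold NW_020847798.1, 1349940 to 1358372, plus strand) stood at 81.0, 65.8 and 51.0 FPKM in transport replicates 1, 2 and 3, and at 137, 264 and 368 FPKM in control replicates 1, 2 and 3. The groups did not overlap, and control replicate 1 was the lowest of the controls by a wide margin. Among all tested genes 32.7% had groups that did not overlap, 17.6% with transport above and 15% with transport below. The means were 65.9 ± 15.01 FPKM after transport and 257 ± 116 FPKM in the controls (SD, n = 3 each), and the fitted log2 fold change was -1.98 (SE 0.36). It lay at -2.30 without control replicate 1 and at -1.62 without control replicate 3, the ends of its range when 1 library was left out. The spread was above the median of other genes in both groups, with a coefficient of variation of 22.8% after transport and 45.1% in the controls. The medians were 10.9% and 15.8% over the 16090 tested genes with a mean of at least 1 FPKM, which were not matched to the level of nos2. In rank among all 25792 genes by FPKM, nos2 lay at 822, 1065 and 1378 after transport and at 446, 274 and 209 in the controls.

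The second inducible-like gene, LOC113645328 (NW_020847798.1, 1314980 to 1332510, minus strand), lies on the same scaffold as nos2 and carries the same enzyme number in the table. It was close to silent, at 0.13, 0 and 0.14 FPKM after transport and 1.02, 0.02 and 0.11 FPKM in the controls. The highest value, 196 estimated counts, came from control replicate 1, and the remaining 5 libraries held 26 or fewer. Its log2 fold change of -2.07 was not called (edgeR, SE 1.65, adjusted p = 0.494), and the sign turned without control replicate 1 (0.47). Reads of similar gene copies cannot be told apart with these values. The brain-type gene nos1 (NW_020847937.1, 3027488 to 3098634) had 0.02, 0.02 and 0 FPKM after transport and 0.01, 0.03 and 0 FPKM in the controls, 12 estimated counts at most, and was too low to be tested. The nos2 gene thus made up between 99.7% and 99.97% of the summed synthase FPKM after transport and between 99.3% and 99.98% in the controls.

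The product of nosip binds endothelial nitric oxide synthase in mammals and is also a ubiquitin ligase. This gene (NW_020847852.1, 214679 to 228088) was the steadiest of the 7, at 27.4, 26.1 and 27.9 FPKM after transport and 30.6, 30.6 and 30.9 FPKM in the controls. As in 32.7% of all tested genes, the groups did not overlap. The difference was small and not called, with a log2 fold change of -0.20 (edgeR, SE 0.09, adjusted p = 0.231). The gene rcn3 lies inside it on the opposite strand, and since no source states that reads were counted by strand, its reads could contribute to this value.

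The itaconate gene acod1 (113654169, NW_020847958.1, 6366656 to 6370066, plus strand) stood at 8.51, 5.68 and 3.61 FPKM in transport replicates 1, 2 and 3, and at 0.99, 1.45 and 1.38 FPKM in control replicates 1, 2 and 3. Every transport library was above every control, as in 17.6% of all tested genes, and here the spread was larger after transport. The means were 5.93 ± 2.46 FPKM after transport and 1.27 ± 0.248 FPKM in the controls (SD, n = 3 each), with a log2 fold change of 2.19 (SE 0.35) that lay between 1.84 without transport replicate 1 and 2.45 without transport replicate 3. The depth behind these values was modest, at 768, 585 and 358 estimated counts after transport and 101, 178 and 124 in the controls. Transport replicate 1 had the highest level of both acod1 and nos2 among the transport libraries.

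Neither arginase gene differed beyond the spread between libraries. The mitochondrial arginase gene arg2 (NW_020847766.1, 282462 to 291187) was at 38.9, 47.6 and 52.3 FPKM after transport and 38.5, 41.9 and 29.2 FPKM in the controls, and its log2 fold change was 0.32 (edgeR, SE 0.17, adjusted p = 0.294). In mammals arginase 1 is the cytosolic form and marks alternatively activated macrophages. The arginase-1-like gene LOC113656635 (NW_020847980.1, 416257 to 421492) was at 17.2, 28.6 and 39.2 FPKM after transport and 23.5, 20.6 and 33.2 FPKM in the controls. Its groups overlapped widely (log2 fold change 0.12; edgeR, SE 0.32, adjusted p = 0.858), and the sign turned without transport replicate 3 (-0.19) or control replicate 2 (-0.02). Of the 5 genes found by product name, 4 could be tested and 0 were called by edgeR, against 6.69% of all tested genes. Of the 4, 0 had an unadjusted p under 0.05, against 25% of all tested genes, and DESeq2 and limma called 0 as well.

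**Figure D1:**
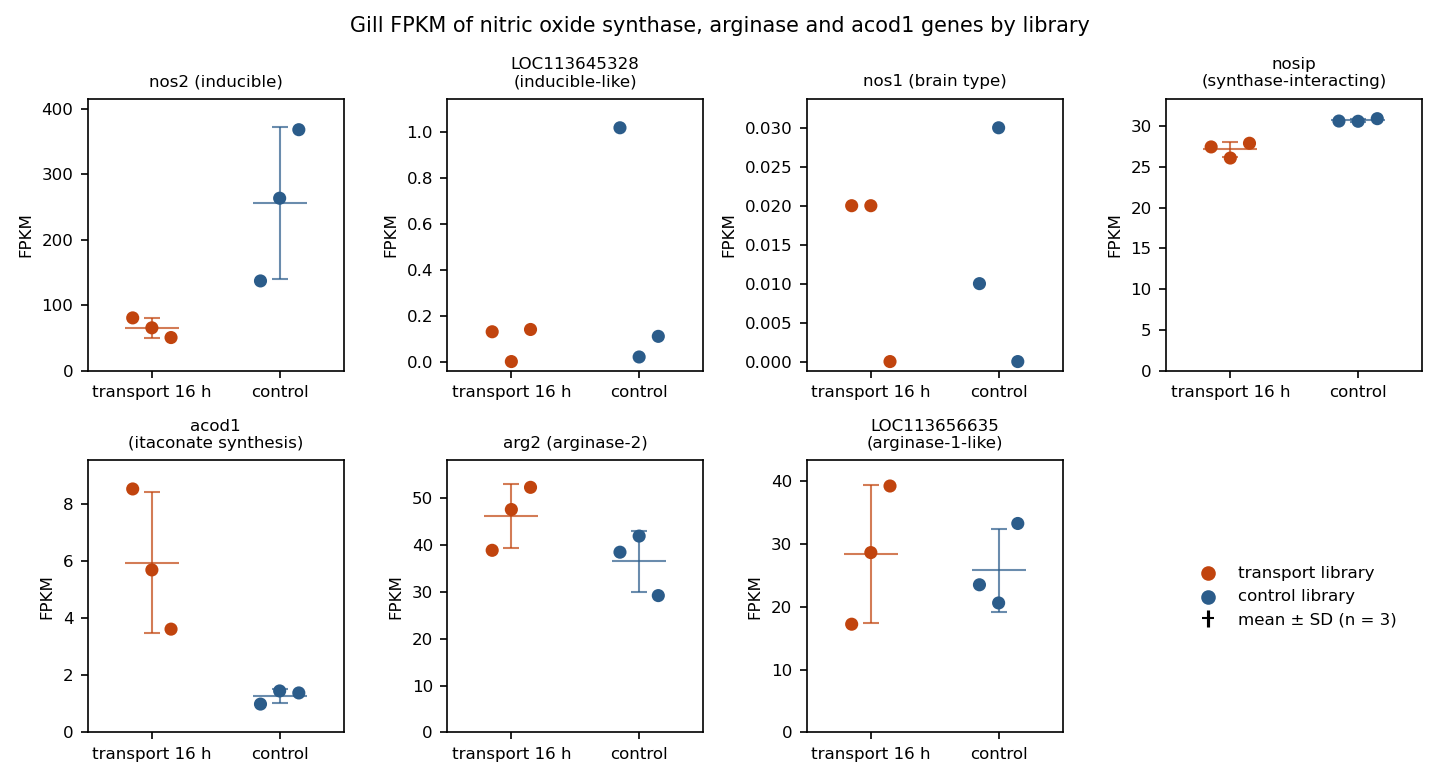
FPKM of the 7 genes in each gill library, with transport on the left and control on the right of each panel. Points are libraries and bars are the mean ± SD of 3 libraries, left out for nos1 and LOC113645328, whose values lie near 0. The nos2 points lie between 51.0 and 81.0 after transport and between 137 and 368 in the controls, those of acod1 between 3.61 and 8.51 after transport and between 0.99 and 1.45 in the controls, and the arginase points of the groups overlap.

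Since FPKM is scaled by transcript length, the genes can be set against each other within a library. After transport nos2 was at 1.44, 0.864 and 0.557 times the summed FPKM of both arginase genes, against 2.22, 4.22 and 5.90 times in the controls. The highest transport ratio lay below the lowest control ratio. The summed arginase FPKM was 56.1, 76.2 and 91.5 after transport and 62.0, 62.5 and 62.5 in the controls, so the arginase sum was nearly the same in the 3 controls and spread to either side of that level after transport. The single genes were less steady in the controls and varied in opposite directions. There arg2 was at 38.5, 41.9 and 29.2 FPKM and the arginase-1-like gene at 23.5, 20.6 and 33.2 FPKM. The level of acod1 came to 10.5%, 8.63% and 7.08% of that of nos2 after transport, against 0.720%, 0.550% and 0.375% in the controls. These ratios contain nos2 or acod1 and are given without a test.

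In order of mean FPKM after transport, nos2 came first, followed by arg2 (46.3 ± 6.82), the arginase-1-like gene (28.3 ± 11.0), nosip (27.1 ± 0.942) and acod1 (SD, n = 3). The ranges of nos2 and arg2 overlapped there, as did those of arg2 and the arginase-1-like gene and those of the arginase-1-like gene and nosip. In the controls the order was nos2, arg2 (36.5 ± 6.57), nosip (30.7 ± 0.177), the arginase-1-like gene (25.8 ± 6.62) and acod1 (SD, n = 3). There nos2 lay clear of all others, while the ranges of arg2, nosip and the arginase-1-like gene overlapped. In both groups acod1 lay below all of these and above LOC113645328 and nos1, although control replicate 1 of LOC113645328, at 1.02 FPKM, reached the acod1 level.

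**Figure D2:**
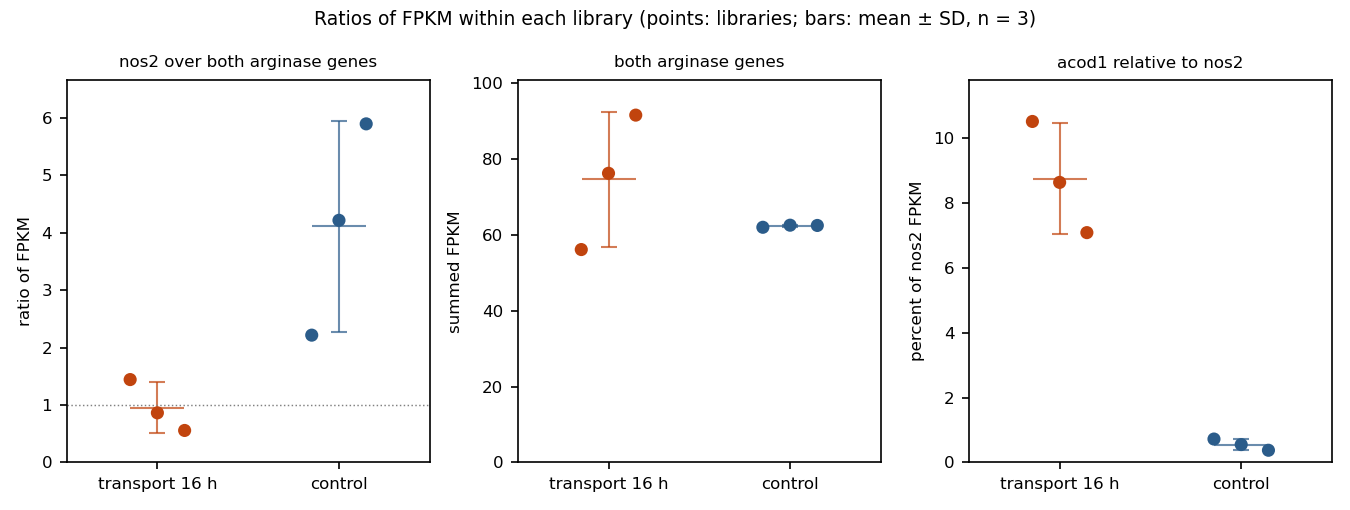
Ratios within each library, transport on the left and control on the right, with points for libraries and bars for the mean ± SD (n = 3). The ratio of nos2 to both arginase genes lies between 0.557 and 1.44 after transport and between 2.22 and 5.90 in the controls (dotted line: equal FPKM), the arginase sum overlaps between the groups, and acod1 is 7.08% to 10.5% of nos2 after transport and 0.375% to 0.720% in the controls.

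Genes next to nos2 and acod1 on their scaffolds were few, and edgeR called 0 of them, against 6.69% of all tested genes. LOC113645328 lies 17429 bases from nos2 on the opposite strand, so that both synthase genes point away from each other, with lyrm9 and the unannotated LOC113645338 between them. Within 60 kb of nos2 there were 5 genes, of which 4 were tested and edgeR called 0. Of these, 1 had an unadjusted p under 0.05, mrps23, and DESeq2 and limma called 0. That gene, the nearest tested one, is a gene for a protein of the mitochondrial ribosome, lies 2000 bases beyond the end of nos2 and had a log2 fold change of 0.53 (edgeR, SE 0.19, adjusted p = 0.149). On the other side lyrm9 had -0.71 (SE 0.33, edgeR adjusted p = 0.241). Within 60 kb of acod1 there were 9 genes, of which 8 were tested and edgeR called 0, with 4 at an unadjusted p under 0.05, a level that 25% of all tested genes reached, while DESeq2 called 2 and limma 0. The nearest of the 4, LOC113654148, lies 3665 bases beyond the end of acod1 on the same strand. Its log2 fold change was 1.05 (edgeR, SE 0.37, adjusted p = 0.138). The others were LOC113654300 (0.54), LOC113654514 (-1.34) and vgll3 (-1.12), so the 4 moved in both directions.

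**Figure D3:**
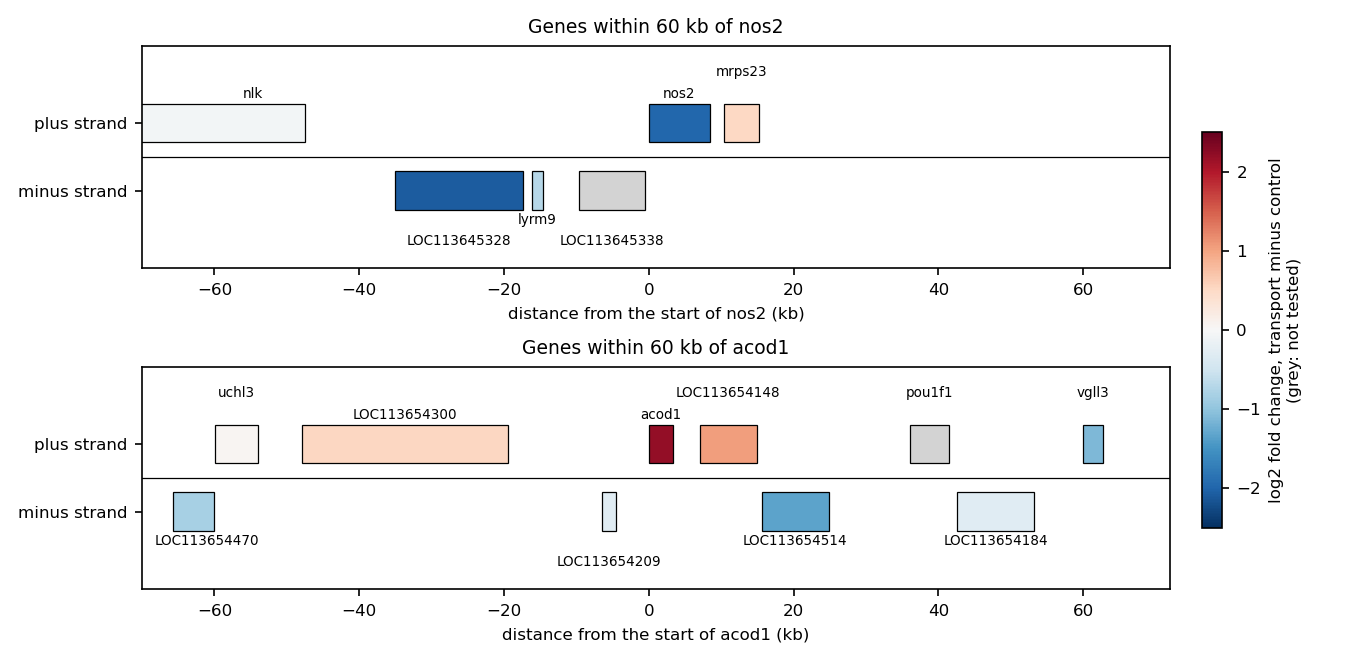
Genes within 60 kb of nos2 (top) and acod1 (bottom), drawn by distance in kb from the start of each gene, plus strand above the line and minus strand below it. Colour is the log2 fold change, transport minus control, on a scale from blue (lower after transport) to red (higher), with grey for genes too low to be tested. LOC113645328 is as blue as nos2 (-2.07 and -1.98), but its value rests on control replicate 1.

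Across the 6 libraries, the genes most like nos2 among 7791 with a symbol and a mean of at least 1 FPKM were cstf2, fzd6, cish, fuca1 and rhbg, with Pearson correlations of log2(FPKM + 1) between 0.994 and 0.996. The cytokine-induced inhibitor gene cish was at 16.0, 15.5 and 12.7 FPKM after transport and 19.5, 26.2 and 29.4 FPKM in the controls. The ammonium transporter gene rhbg was at 530, 457 and 399 FPKM after transport and 614, 812 and 899 FPKM in the controls. The 5 genes most like acod1 were hhat, atf7ip, atg12, nt5dc2 and wnk4, with correlations between 0.991 and 0.997. The autophagy gene atg12 was at 30.4, 24.4 and 22.3 FPKM after transport and 16.0, 16.9 and 16.6 FPKM in the controls. These correlations are a description over 6 libraries that also hold the difference between the groups, and the genes share the libraries and their depth.

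The pathways around these enzymes were read from 8 gene lists that together held 144 genes of the table, of which 140 were tested. In all, 13 were higher (3.23% of all tested genes were) and 7 were lower (3.46% of all). The median log2 fold change was 0.06, against 0.00 over all tested genes. These 20 calls depended on single libraries, with 7, 0 and 5 of them remaining without transport replicates 1, 2 and 3 and 16, 13 and 6 without control replicates 1, 2 and 3. All 20 kept their sign and an unadjusted edgeR p under 0.05 in each of those 6 fits, although the libraries that remained had also been used to choose them.

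Of 14 tested genes of arginine supply, cationic amino acid transporters included, 2 rose and 0 fell, with a median log2 fold change of -0.05. Among all tested genes 3.23% rose and 3.46% fell. Both that rose, otc and slc25a15, act on ornithine at the mitochondrion. The ornithine carbamoyltransferase gene otc rose to 8.04, 12.6 and 14.5 FPKM after transport, against 3.52, 4.33 and 3.85 FPKM in the controls (log2 fold change 1.56; edgeR, SE 0.25, adjusted p = 0.0207). The gene slc25a15, whose product carries ornithine into the mitochondrion, rose to 25.4, 32.0 and 34.5 FPKM, against 20.5, 17.7 and 19.5 FPKM in the controls (0.66, SE 0.15, edgeR adjusted p = 0.0468). In both genes every transport library lay above every control, as in 17.6% of all tested genes. Further genes of this route, named after their values were seen, were not called by edgeR: cps1, which supplies carbamoyl phosphate, was at 5.92 ± 0.500 and 3.56 ± 0.980 FPKM in transport and control, and nags, which makes its activator, was at 13.6 ± 0.852 and 8.76 ± 3.02 FPKM in transport and control (edgeR adjusted p = 0.104 and 0.171; SD, n = 3). DESeq2 called cps1 (adjusted p = 0.0305) and not nags (0.0953), and edgeR called nags without control replicate 2 (adjusted p = 0.0414). The argininosuccinate synthase gene ass1 was abundant, at 320, 443 and 563 FPKM after transport and 385, 785 and 380 FPKM in the controls, and the groups overlapped (edgeR adjusted p = 0.708). The argininosuccinate lyase gene asl was at 72.7 ± 4.79 FPKM after transport and 88.4 ± 17.7 FPKM in the controls (edgeR adjusted p = 0.272). The slc25a15 call was lost whichever of the 6 libraries was left out (edgeR adjusted p 0.0508 to 0.187). The otc call was lost without transport replicate 2 (edgeR adjusted p = 0.120), transport replicate 3 (0.0798) or control replicate 3 (0.0678).

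Of 12 tested genes of arginine and ornithine use, edgeR called 0 (median log2 fold change 0.18), with 2 at an unadjusted p under 0.05. Among all tested genes edgeR called 6.69%, and 25% had an unadjusted p under 0.05. On this list DESeq2 called 2 and limma 1. The proline synthesis gene pycr1 came nearest, at 30.2 ± 4.78 FPKM after transport and 18.0 ± 3.37 FPKM in the controls (SD, n = 3, edgeR adjusted p = 0.0620). Ornithine decarboxylase, which starts polyamine synthesis, had 3 gene copies, the most abundant of which, LOC113659703, was at 44.1 ± 10.8 FPKM after transport and 42.2 ± 4.15 FPKM in the controls. The smallest p among the copies was that of LOC113659677 (log2 fold change 0.69; edgeR, SE 0.21, adjusted p = 0.0978).

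The calls among genes that serve nitric oxide synthases were few and stand beside the 6.69% of all tested genes that edgeR called. Of 12 tested for the tetrahydrobiopterin cofactor and for synthase regulators, 0 rose and 1 fell, with 10 of 12 log2 fold changes below 0 (median -0.21). Over all tested genes, 10353 of 20771 were below 0. GTP cyclohydrolase 1, encoded by gch1, is the entry enzyme of cofactor synthesis, and its gene was at 8.83, 7.98 and 6.97 FPKM after transport and 5.38, 11.3 and 6.69 FPKM in the controls (edgeR adjusted p = 0.991). The gene that fell was nos1ap, an adaptor of the brain-type synthase, to 0.54, 0.44 and 0.49 FPKM after transport, against 1.06, 1.37 and 1.10 FPKM in the controls (log2 fold change -1.28; edgeR, SE 0.22, adjusted p = 0.0264). It was called only in the leave-one-out fit without control replicate 1, and its edgeR adjusted p was 0.139 without transport replicate 2. Of 7 tested genes for targets and removal of nitric oxide, 1 rose, the cytoglobin-like gene LOC113650453, to 15.5, 19.2 and 20.2 FPKM after transport, against 3.00, 7.49 and 7.76 FPKM in the controls (log2 fold change 1.57; edgeR, SE 0.36, adjusted p = 0.0492). Cytoglobin consumes nitric oxide in mammals. It too was called only in the leave-one-out fit without control replicate 1, with an edgeR adjusted p of 0.182 without transport replicate 2. Soluble guanylate cyclase, the nitric oxide receptor, was scarce, with gucy1a1, gucy1a2 and gucy1b1 all at 0.66 FPKM or less in each library.

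Of 23 tested genes of the tricarboxylic acid cycle and of itaconate handling, 20 had a log2 fold change above 0 (median 0.21). Over all tested genes, 10418 of 20771 were above 0. Of the 23, 1 rose and 1 fell, beside 3.23% and 3.46% of all tested genes. Mitochondrial isocitrate dehydrogenase, encoded by idh2, turns isocitrate into 2-oxoglutarate, and its gene rose to 75.01, 85.2 and 95.2 FPKM after transport, against 49.3, 59.7 and 52.8 FPKM in the controls (0.64, SE 0.13, edgeR adjusted p = 0.0354). The ATP-citrate lyase gene acly, which takes citrate to lipid synthesis, fell to 11.5, 10.5 and 10.7 FPKM, against 19.0, 34.0 and 26.8 FPKM in the controls (-1.31, SE 0.21, edgeR adjusted p = 0.0208). The gene sdha, for a subunit of succinate dehydrogenase, the enzyme that itaconate inhibits, was at 51.7 ± 7.53 FPKM after transport and 49.4 ± 3.29 FPKM in the controls and was not called (SD, n = 3, edgeR adjusted p = 0.864). Without transport replicates 1, 2 or 3 or control replicate 3 neither idh2 nor acly was called (edgeR adjusted p 0.0531 to 0.161), and without control replicate 1 only 1 of them was.

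Genes of the redox and transcription pathways that itaconate acts on in mammals moved in both directions. Of 10 tested, 3 rose and 1 fell (median log2 fold change 0.31), while 3.23% of all tested genes rose and 3.46% fell. The gene nfkbiz, for a coactivator of inflammatory genes, rose to 161, 145 and 130 FPKM after transport, against 85.0, 80.6 and 62.9 FPKM in the controls (0.91, SE 0.14, edgeR adjusted p = 0.0188). The redox sensor gene keap1 rose to 24.9 ± 1.35 FPKM, against 16.4 ± 2.16 FPKM in the controls, and the glutathione synthesis gene gclm to 20.2 ± 0.294 FPKM, against 10.8 ± 2.89 FPKM in the controls (SD, n = 3, edgeR adjusted p = 0.0376 and 0.0457). The quinone reductase gene nqo1, like gclm a standard target of the factor encoded by nfe2l2, fell to 41.1, 37.7 and 26.1 FPKM, against 93.2, 92.8 and 126 FPKM in the controls (-1.59, SE 0.21, edgeR adjusted p = 0.0131). The gene nfe2l2 itself was at 124 ± 1.47 FPKM after transport and 143 ± 15.8 FPKM in the controls and was not called (SD, n = 3, edgeR adjusted p = 0.248). Without transport replicate 2 none of the 4 was called (edgeR adjusted p 0.0946 to 0.176). The keap1 call was lost whichever of the 6 libraries was left out (edgeR adjusted p 0.0510 to 0.169), and that of gclm was kept only without control replicate 2. The numbers remaining were 1 and 1 without transport replicates 1 and 3, and 2, 3 and 2 without control replicates 1, 2 and 3.

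**Figure D4:**
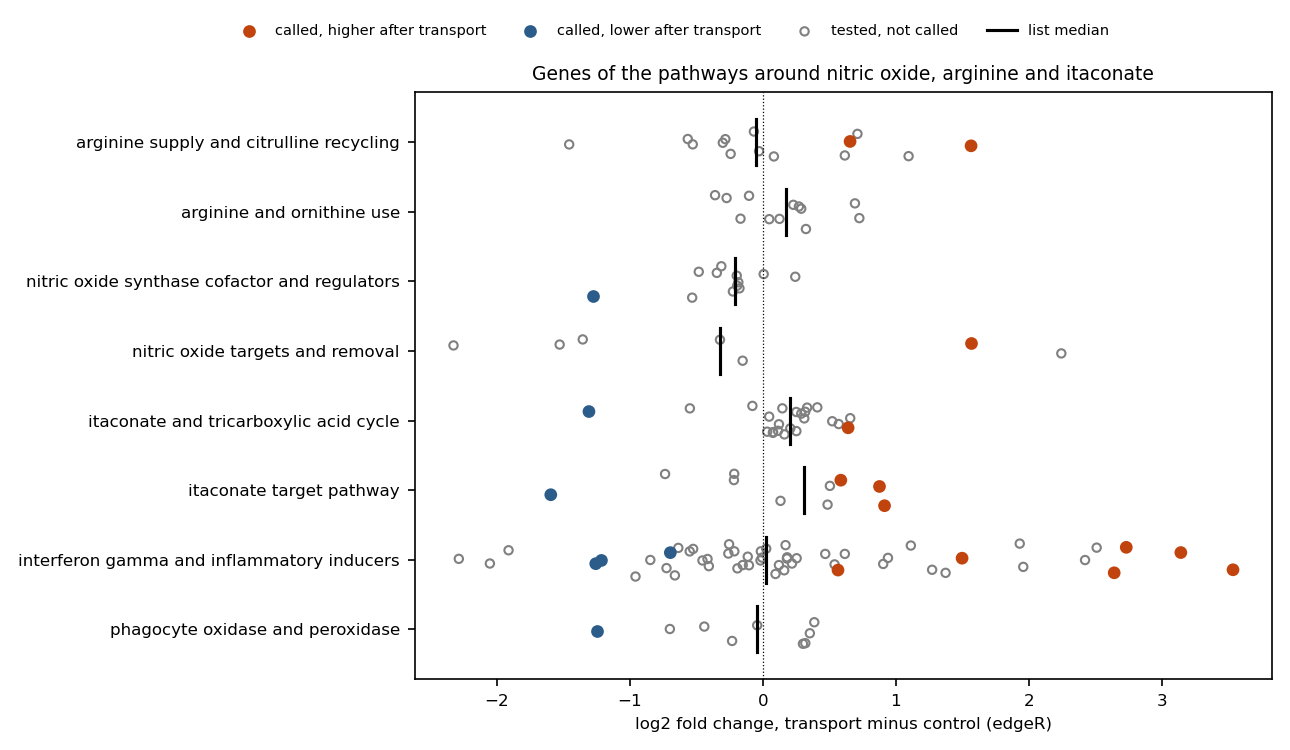
Log2 fold changes, transport minus control, of the tested genes of 8 lists, 1 row per list. Filled points passed an adjusted p under 0.05 in edgeR, open points did not, and black lines are list medians, which lie between -0.32 and 0.31. The 20 called genes are 13 higher and 7 lower, and the 4 points farthest to the right among them are interleukin-1 beta copies.

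Interferon gamma and interleukin-1 signalling induce nos2 and acod1 in mammalian macrophages, and genes of these routes moved in both directions here. Of 53 tested, 6 rose and 3 fell (median log2 fold change 0.03), beside 3.23% and 3.46% of all tested genes. The interferon regulatory factor gene irf1 was at 654, 615 and 553 FPKM after transport and 236, 198 and 204 FPKM in the controls (edgeR adjusted p = 0.00432). A separate gene annotated as similar to it, LOC113660726, fell to 38.7, 30.1 and 24.4 FPKM, against 55.4, 72.1 and 91.8 FPKM in the controls (-1.25, SE 0.23, edgeR adjusted p = 0.0305). Of the interleukin-1 beta-like copies 4 rose, among them LOC113638465 at 8.39, 5.90 and 5.82 FPKM after transport, against 0.65, 0.74 and 0.29 FPKM in the controls (3.53, SE 0.40, edgeR adjusted p = 0.0106), and LOC113635103 at 9.21, 7.41 and 6.38 FPKM, against 1.32, 1.24 and 1.06 FPKM in the controls. The other two were LOC113635102 and LOC113638463, and reads of such copies may have been split among them. Outside the rule for named genes, the bacterial lipoprotein receptor gene tlr2 fell (log2 fold change -1.21), as did a SOCS3-like gene (LOC113639654, -0.69). Other toll-like receptor genes were not called and lay on both sides of 0. They ran from -2.28 (LOC113656584) to 2.51 (LOC113635787), both at 0.91 FPKM or less in each library. A further SOCS3-like gene, LOC113638999, was not called (0.25). This list overlaps the genes that earlier work on these libraries had shown to change, so its count is not independent evidence. Without transport replicate 2 none of the 9 was called (edgeR adjusted p 0.0629 to 0.162), and 4, 4, 9, 6 and 4 were called without transport replicates 1 and 3 and control replicates 1, 2 and 3.

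The phagocyte oxidase, which makes superoxide and is the other microbicidal enzyme of phagocytes, was not called in any subunit. Of 9 tested oxidase and peroxidase genes, 0 rose and 1 fell (median log2 fold change -0.04), beside 3.23% and 3.46% of all tested genes. The gene that fell was LOC113661326, similar to eosinophil peroxidase, to 28.4, 21.2 and 16.8 FPKM after transport, against 55.2, 46.8 and 53.2 FPKM in the controls (-1.24, SE 0.19, edgeR adjusted p = 0.0194). That call was lost without transport replicate 2 (edgeR adjusted p = 0.122), transport replicate 3 (0.0580) or control replicate 3 (0.0607).

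Macrophage markers were present in all libraries, and their sum did not separate the groups. The list held 102 genes of the table, of which 61 were tested, 3 rose and 1 fell, while 3.23% of all tested genes rose and 3.46% fell. The summed FPKM of the list was 674, 566 and 472 after transport and 635, 775 and 801 in the controls, with overlap. Without transport replicate 2 none of the 4 was called (edgeR adjusted p 0.0812 to 0.112), and 2 and 1 were without transport replicates 1 and 3. Leaving aside 90 mannose receptor-like and M130-like copies, which are large gene families in this fish and were set apart after the list was seen, 12 macrophage markers were in the table and 0 were at 0 in all libraries. Of these, 11 of 12 had a log2 fold change below 0, as did 10353 of the 20771 tested genes. Among the 11, irf8 (-0.005) and spi1 (-0.06) were level, while marco lay above 0 (0.32), and edgeR called none of these. In this subset 1 fell, the perforin-like gene LOC113656273, similar to macrophage-expressed gene 1. It was at 17.7, 15.3 and 15.01 FPKM after transport and 26.4, 27.1 and 29.0 FPKM in the controls (log2 fold change -0.80, SE 0.10, edgeR adjusted p = 0.0131). That call was lost without transport replicate 2 (edgeR adjusted p = 0.102) or transport replicate 3 (0.0637). The growth factor receptor gene csf1r, a marker on this list, was at 7.22 ± 0.853 FPKM after transport and 13.4 ± 3.76 FPKM in the controls (SD, n = 3). The complement genes for the A-like, B-like and C-like subunits of C1q had log2 fold changes of -0.94, -0.91 and -0.51. EdgeR called none of these 4 (adjusted p from 0.0539 to 0.124). DESeq2 called all 4, in a test that called 3336 genes against 1389 by edgeR. The summed FPKM of the 12 markers was 503, 419 and 346 after transport and 523, 668 and 707 in the controls, without overlap, in a subset chosen after the list was seen. Most of it came from lgmn and the C1q genes, and the latter lie next to each other on the same scaffold. Mean FPKM after transport was 87.7 for lgmn and 46.7, 70.3 and 115 for the A-like, B-like and C-like subunits. The control means were 126, 88.4, 131 and 161 FPKM in the same order. Relative to the 12-marker sum, nos2 was at 16.1%, 15.7% and 14.7% after transport and 26.3%, 39.5% and 52.1% in the controls. That ratio contains nos2, which was chosen by its difference between the groups, and is given without a test. The level of acod1 was 1.69%, 1.36% and 1.04% of that sum after transport and 0.189%, 0.217% and 0.195% in the controls. The part of these cells in either difference was not tested. Among the 90 copies set apart, 49 were tested, 3 rose (LOC113661728, LOC113661729 and LOC113661770), 0 fell and 7 were at 0 in all libraries, and their sum was 126 to 171 FPKM after transport and 94.3 to 112 FPKM in the controls.

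**Figure D5:**
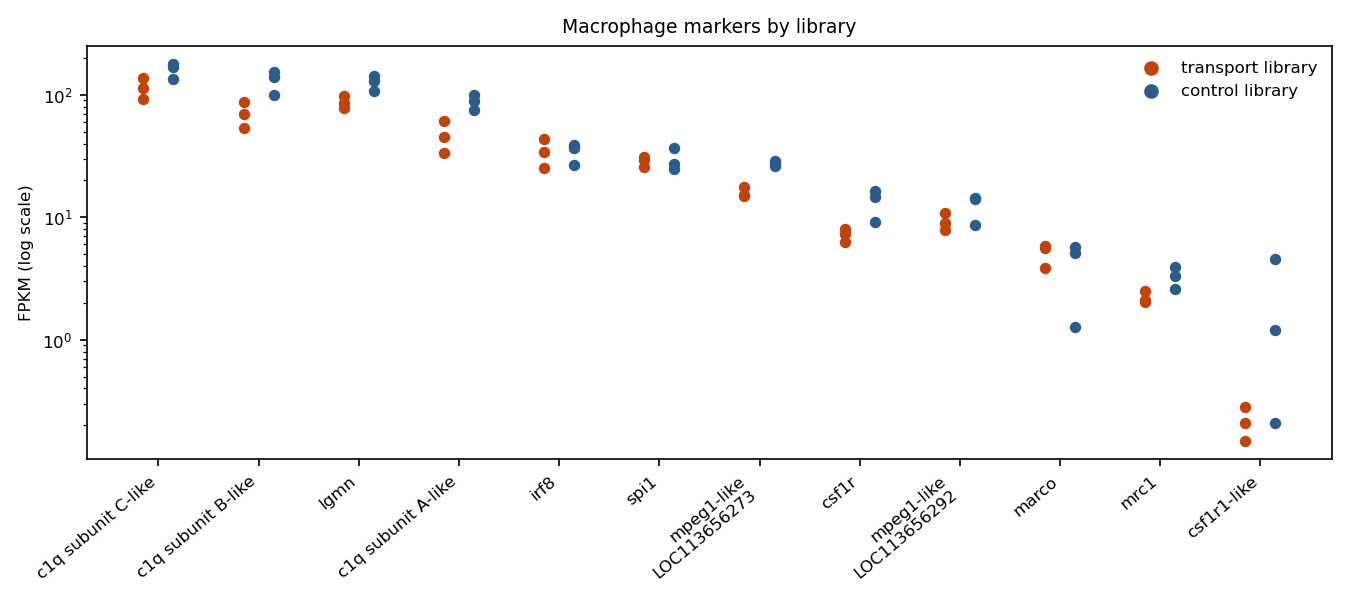
FPKM on a log scale of 12 macrophage markers in each library, transport in red on the left and control in blue on the right of each gene, in order of the control mean. All transport points lie below all control points for 6 of the 12 genes, as for csf1r and the mpeg1-like gene LOC113656273, and overlap with them for the other 6, irf8, spi1 and marco among them. Among all tested genes 15% had transport below control without overlap.

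Markers of other cells also differed beside these genes. Their calls stand beside the 6.69% of all tested genes that edgeR called. The summed FPKM of 3 goblet cell markers was 80.3 to 118 after transport and 237 to 430 in the controls, and 1 of them fell, the mucin-folding gene agr2 (-1.84, SE 0.27, edgeR adjusted p = 0.0182, 0.115 without transport replicate 2 and 0.0798 without transport replicate 3). That sum was mostly agr2, at 82.1 ± 17.0 FPKM after transport and 291 ± 104 FPKM in the controls. Also lower without overlap, but not called by edgeR, were galnt12 (14.7 ± 1.5 and 20.5 ± 1.95 FPKM in transport and control) and creb3l1 (1.33 ± 0.184 and 1.89 ± 0.269 FPKM, SD, n = 3). Among all tested genes 15% had transport below control without overlap. Relative to the goblet cell sum, nos2 was at 68.9%, 68.1% and 63.5% after transport and 50.4%, 61.3% and 155% in the controls, with overlap. This ratio contains nos2, which was chosen by its difference between the groups, and is given without a test. Both nos2 and agr2 were lower after transport, so the ratio cannot show which cells held nos2. The 4 neutrophil markers found had a sum of 120 to 132 FPKM after transport and 76.1 to 87.98 FPKM in the controls. Of them, 1 was called, lyz (1.38, edgeR adjusted p = 0.0114, 0.0924 without transport replicate 2 and 0.0519 without transport replicate 3). The higher sum came from lyz and ncf1 (log2 fold change 0.39), and the markers did not move together. The receptor gene csf3r was level (0.006, with overlap), and cxcr1 was lower after transport without overlap (-0.32). EdgeR did not call ncf1, csf3r or cxcr1. Sums were 1491 to 1579 FPKM after transport and 1466 to 2129 FPKM in the controls for 7 epithelial markers, with evpl and grhl1 higher and tp63 lower, and 64.2 to 87.5 FPKM after transport and 88.95 to 120 FPKM in the controls for 8 endothelial and pillar cell markers, with flt4 lower. Without transport replicate 2 none of these 4 was called (edgeR adjusted p 0.128 to 0.176), and flt4 was lost in all 6 leave-one-out fits. Without transport replicates 1 or 3 none of the 3 epithelial genes was called either, and 2, 1 and 1 were without control replicates 1, 2 and 3. The sums of ionocyte, erythrocyte and skeletal muscle markers overlapped between the groups, and edgeR called 0 of 7, 0 of 3 and 0 of 4 of them, with 0, 2 and 0 at an unadjusted p under 0.05, 0, 2 and 0 called by DESeq2 and 0, 1 and 0 by limma. The skeletal muscle sum varied widely within both groups, at 14.4, 96.7 and 163 FPKM in transport replicates 1, 2 and 3 and 153, 34.3 and 29.7 FPKM in control replicates 1, 2 and 3. In each group the library with the highest muscle sum had the lowest nos2 level. The part of these cells in the nos2 and acod1 values was not tested.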

How the data were processed

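The deposited table gives, per the file headers, an FPKM and a count for each of 25792 genes in 6 gill libraries. The authors' processing notes name HISAT and StringTie without versions, and a genome build was not given in the sources used here. Deposited counts, although whole, were handled as estimated counts, because in control replicate 1, for example, 427 genes had the value 4, against 113 at 3 and 81 at 5. Intervals and standard errors cover the spread between libraries. All 12 value columns were used.

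Genes were kept by filterByExpr (minimum count 10, minimum total 15), scaled by TMM and tested with edgeR 4.0.16 (two-sided quasi-likelihood F test, R 4.3.3) over 20771 genes, transport minus control, with a threshold of 0.05. Standard errors were derived from F, as |log2 fold change| over its square root. Alternatives used limma 3.58.1, DESeq2 1.42.0, other filters, scalings and pseudocounts, a replicate block and each library left out. The test was checked on simulated counts.

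Members and lists were chosen with earlier results of these data known, so the counts of calls in the pathway and marker lists are not independent evidence. List genes were matched by symbol (also with a fish suffix) or, for locus numbers, by product; mdh1b and nebl met the suffix rule but are other genes and were dropped. Named were all members, up to 6 called genes per list or else those with the smallest p, a fixed set of adjacent enzymes (ass1, asl, gch1, irf1, ornithine decarboxylase, sdha, nfe2l2), and the 5 genes most correlated with nos2 and with acod1. Genes outside this rule are values beside these or are named as such. Some genes that the rule or the calls would name are not reported here.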

Additional observations from a re-analysis of the deposited data

How the results depend on the processing

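The log2 fold change of nos2 kept its sign and moved by less than the spread between libraries under every alternative, between -2.30 and -1.62 when 1 library was left out. That of acod1 did so too, between 1.84 and 2.45, except on log2(FPKM + 1), with or without a filter, where it was 1.55, since a pseudocount of 1 is close to its control level. For arginase and other nitric oxide synthase genes, 0 were called under every alternative. The number of called genes was 1389 in all and 20 in the lists. It was 3336 and 42 with DESeq2's Wald test, and between 3 and 1498 and between 0 and 20 when 1 library was left out, lowest without transport replicate 2. Leaving out control replicate 1 and transport replicate 2 together, chosen after seeing the data, gave 0 and 0. With the replicate number as a block, 14 and 1 genes were called. Same-numbered libraries did not deviate together (correlations of -0.0735, -0.0296 and -0.0441). The labels do not say what the shared number stands for, and these correlations cannot settle it. The sign turned for 6 uncalled genes when 1 library was left out, with log2 fold changes of -2.64 to 0.47 for LOC113645328, -0.19 to 0.38 for LOC113656635, -0.46 to 0.19 for ass1, -0.13 to 0.23 for LOC113659703, -0.22 to 0.37 for gch1 and -0.058 to 0.16 for sdha. Without control replicate 1 and transport replicate 2 it turned for LOC113645328 (1.06), LOC113659703 (-0.066), gch1 (-0.22) and sdha (-0.030). For gch1 it also turned with DESeq2's size factors and Wald test (-0.0037 in both). The cause was not tested. For LOC113645328, nos1 and other genes with few counts, depth limits what can be seen.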
